A study of Mus musculus with 460 samples.

Results

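The interleukin-6 (IL6) family is described here by 10 genes in single mouse cells labelled as cancer-associated fibroblasts (CAFs). They are the cytokines Il6, Lif, Il11 and Clcf1, the receptor chains Il6st, Il6ra, Osmr and Lifr, the transcription factor Stat3 and the inhibitor Socs3. The 10 were chosen by gene symbol from the 48440 genes in the table, and all 10 were found. The study is single-cell RNA-seq of 460 cells, called tCAFs in the labels, an abbreviation that the labels do not spell out. They came from mice of 1 strain with lung adenocarcinoma. There was 1 group, with no untreated or healthy cells. No treatment, age, animal or culture is given in the labels. The cells were therefore taken as a single sample, and no test between sets of cells was made. Differences below describe these cells, and their intervals cover counting error only.

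Cytokines of this family signal through Il6st, a chain that they share, together with further chains. IL6 binds Il6ra, LIF binds Lifr, IL11 binds Il11ra1, CLCF1 acts through Cntfr among other chains, and oncostatin M binds Osmr. The assembled receptor activates Janus kinases, which phosphorylate STAT3, and Socs3 is a STAT3 target that blocks the receptor in turn. Fibroblasts of tumours are known as a source of IL6 and LIF.

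The table held molecular barcode counts, with 25029 to 240496 per cell and a median of 88701. Levels are counts per 1000000 counts (CPM), from counts summed over cells unless a single cell is named. Of 9 fibroblast markers, 8 were counted in 90% of cells or more. So were 5 of 8 pericyte and 2 of 4 smooth muscle markers. None of the 9 leukocyte, 7 epithelial, 5 endothelial or 3 mesothelial markers were counted that often. Surfactant transcripts of alveolar epithelium were nevertheless counted in most cells, Sftpc in 80.9%, Sftpb in 76.7% and Sftpa1 in 72.6%. Among 18 genes of tissues outside the lung stroma, 12 had no count, and the most often counted, Myh6 of heart muscle, had one in 5.0% of cells. That share is set here beside sparse genes, although the surfactant transcripts of another cell type were counted far more often. Cells with more Rgs5 than Pdgfra counts were set against the rest, Rgs5 being a pericyte marker and Pdgfra a fibroblast marker. Cells with Rgs5 > Pdgfra made up 44.1% (exact Clopper-Pearson 95% interval 39.5 to 48.8%) and the rest 55.9%. Both genes had a count in all 460 cells. Of all 16968 genes with at least 1 CPM, 7.08% were at least 2-fold higher in Rgs5 > Pdgfra cells. Of the 8 pericyte markers 7 were, among them Rgs5, which the split itself uses. Summed, the 8 had 10149 CPM in Rgs5 > Pdgfra cells and 1800 CPM in the rest. The split cuts a continuous range: 72 cells lay within 2-fold of it, 32 with Rgs5 > Pdgfra and 40 in the rest. Depth differed, with a median total of 76944 counts in Rgs5 > Pdgfra cells and 96654 in the rest. Shares are therefore also given after every cell was thinned to 56586 counts, which left out 32 shallower Rgs5 > Pdgfra cells and 14 of the rest. Summed leukocyte markers stood at 216.6 CPM in Rgs5 > Pdgfra cells (lowest cell 0, median 21.9, highest 4710) and 50.6 CPM in the rest (0, 16.96 and 2193). Of these 9 markers 7 were at least 2-fold higher in Rgs5 > Pdgfra cells, and Cd79a and Itgam were under 1 CPM. By share of cells with a count, Ptprc and Laptm5 were nearly equal between the sets. Cd68 was counted less often in Rgs5 > Pdgfra cells (39.9% against 44.4%). Csf1r, Tyrobp, Fcer1g and Cd3e were counted more often there, as with Tyrobp (15.3% against 7.39%). Cd3e reached 1 CPM through Rgs5 > Pdgfra cells alone (7.61 CPM against 0.234 CPM in the rest). Summed epithelial markers had 1354 CPM in Rgs5 > Pdgfra cells and 835.8 CPM in the rest (4 of 7 at least 2-fold higher). Mesothelial markers had 73.2 CPM in Rgs5 > Pdgfra cells and 31.8 CPM in the rest (2 of 3 at least 2-fold higher). Upk1b, the mesothelial marker counted most often, ran the other way, with 20.3 CPM in Rgs5 > Pdgfra cells and 29.1 CPM in the rest. It was counted in 14.8% of Rgs5 > Pdgfra cells and 35.4% of the rest. Msln and Upk3b, the 2 that were higher, were counted no more often in Rgs5 > Pdgfra cells. The summed mesothelial level had a median of 0 over cells of both sets. Its highest cell had 5812 CPM in Rgs5 > Pdgfra cells and 631.9 CPM in the rest. The part of these other lineages in the differences below was not tested. In the table's column order, 2 runs with 27.6% of the cells held little Sftpc. They had 64 Rgs5 > Pdgfra cells and 63 others.

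Transcripts of Il6st, Osmr and Lifr were found in most cells, while most cytokine counts sat in few cells. Il6st had a count in all 460 cells, Osmr in 99.6% of them, Stat3 in 99.35% and Lifr in 92.6%. Of the ligands, Lif was counted in 76.3% of cells, Il6 in 25.65%, Clcf1 in 20.4% and Il11 in 5.87%. The 46 cells with the most counts of a gene, which are 10% of all cells, held 94.2% of Il6 counts and 78.7% of Lif counts, but 21.7% of Il6st and 28.95% of Osmr counts. Il6ra was the receptor chain with the least even spread, with 70.01% of its counts in 46 cells.

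**Figure D1:**
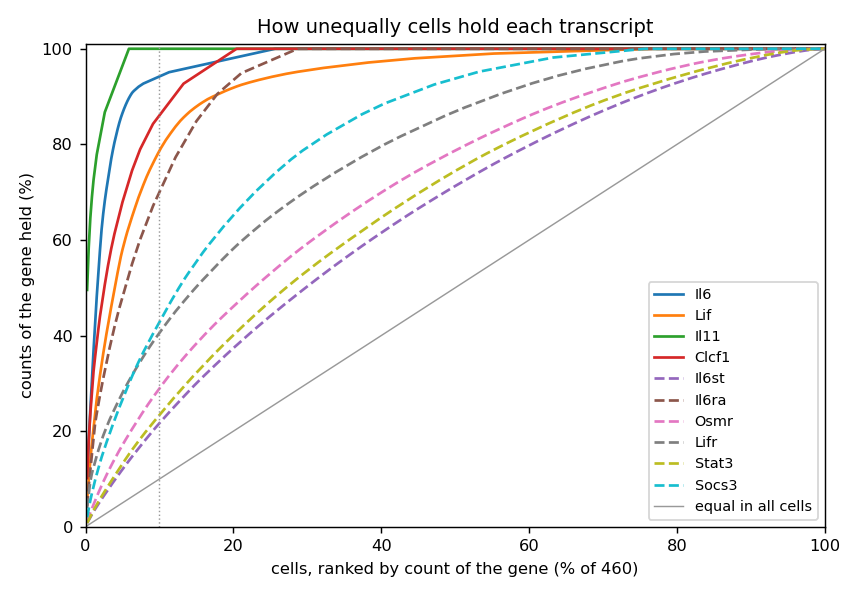
Cumulative share of each gene's counts (vertical axis, %) over the 460 cells ranked by their count of that gene (horizontal axis, %). Solid lines are the 4 ligands, dashed lines the other 6 genes, the diagonal is an equal spread and the dotted line marks 10% of cells. The Il11, Il6 and Clcf1 curves rise steepest, with Lif and Il6ra next and Il6st and Stat3 nearest the diagonal.

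Levels of different genes were compared per kilobase of exon, a scale that assumes counts from along the whole transcript, which the sources used here do not state. Il6st was highest at 69.9 CPM per kb, and Lif was second at 52.2. Osmr had 46.9, Stat3 28.2, Socs3 25.3, Lifr 15.3 and Il6 13.01 CPM per kb. Clcf1 (2.79), Il6ra (1.87) and Il11 (1.27) came last. The second place of Lif came from its highest cells: the median cell had 5.41 CPM per kb of Lif, against 65.7 of Il6st and 41.4 of Osmr. Neighbours in the order whose interquartile ranges over cells overlapped were Stat3 with Osmr, Socs3 with Stat3, Lifr with Socs3, and Clcf1, Il6ra and Il11 with the gene before each.

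Lif, which encodes leukemia inhibitory factor, was the main ligand of the family in these cells, with 9669 counts and 226.9 CPM (exact Poisson 95% interval 222.4 to 231.5). Among single cells the lowest had 0, the median 23.5 and the highest 4342 CPM. A group of 76 cells (16.5%) had at least 20 counts, and 99 had exactly 1. In Rgs5 > Pdgfra cells the lowest had 0, the median 14.2 and the highest 1424 CPM, against 0, 44.3 and 4342 CPM in the rest. The 2 sets overlapped over all of the range of Rgs5 > Pdgfra cells, and cells above that range were all in the rest. Summed Lif was 65.8 CPM (62.01 to 69.8) in Rgs5 > Pdgfra cells and 333.4 CPM (326.4 to 340.5) in the rest, a log2 fold of -2.34 (5.07-fold lower). At least 20 counts of Lif were found in 10 Rgs5 > Pdgfra cells (4.93%, exact interval 2.39 to 8.87%) and in 66 of the rest (25.7%, 20.4 to 31.5%). A count of any size was found in 67.5% of Rgs5 > Pdgfra cells and 83.3% of the rest. After thinning it was 61.4% of Rgs5 > Pdgfra cells and 76.95% of the rest. Lif also moved with column order, with 158.03 CPM in the low-Sftpc runs and 248.6 CPM in the other columns. It was counted in 56.7% of cells in those runs and 83.8% of the other columns, and after thinning in 50.9% of cells in those runs and 77.3% of the other columns. A count of Lif was found in 82.5% of cells with Sftpc and 50% of cells without. Within those runs Lif had 63.1 CPM in Rgs5 > Pdgfra cells and 242.3 CPM in the rest, and in the other columns 66.9 CPM in Rgs5 > Pdgfra cells and 357.8 CPM in the rest. The lower level in Rgs5 > Pdgfra cells was thus present in both.

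Il6, the founding cytokine of the family, had 1346 counts, 31.6 CPM (29.9 to 33.3). The lowest and the median cell had 0 and the highest 1218 CPM. A count was found in 25.65% of cells (21.7 to 29.9%), above the 5.0% of Myh6 and below the shares of the surfactant genes. Of these cells 66 had a single count, 22 had 2 to 4, 12 had 5 to 19 and 18 had at least 20. Il6 in single Rgs5 > Pdgfra cells was at most 649.9 CPM, and in the rest at most 1218 CPM, with a median of 0 in both. Summed Il6 was 15.8 CPM (13.97 to 17.8) in Rgs5 > Pdgfra cells and 42.02 CPM (39.5 to 44.6) in the rest, a log2 fold of -1.41. At least 20 counts were found in 3 Rgs5 > Pdgfra cells and 15 of the rest. The difference did not hold in the low-Sftpc runs, where Il6 had 27.5 CPM in Rgs5 > Pdgfra cells and 16.6 CPM in the rest, a log2 fold of 0.72. A single Rgs5 > Pdgfra cell with 83 counts decided that sign, and without it the fold in those runs was -0.66. In the other columns it was -2.12. A count of Il6 was found in 34.6% of the 52 cells with a count of the leukocyte gene Ptprc and in 24.5% of cells without. With all Ptprc cells left out, the fold was -1.77.

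Il11, a cytokine known in fibrosis, had 2.65 CPM. Its share of cells, 5.87% (3.90 to 8.43%), was near that of Myh6, so single counts of it are read as background. One cell held 56 counts, 49.6% of the total. Il11 was at 0.767 CPM in Rgs5 > Pdgfra cells and 3.90 CPM in the rest, a log2 fold of -2.35. Without the 56-count cell, which was in the rest, the fold was -1.17. Clcf1, a ligand of the ciliary neurotrophic factor receptor, had 10.6 CPM, with 0 in the median cell and 309.5 CPM in the highest. It was counted in 13.3% of Rgs5 > Pdgfra cells and 26.1% of the rest. After thinning it was 11.1% of Rgs5 > Pdgfra cells and 22.2% of the rest. Its CPM ran the other way, 11.9 in Rgs5 > Pdgfra cells and 9.78 in the rest, a log2 fold of 0.28 that became -0.08 without its highest cell. No direction is drawn for Clcf1.

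The upstream sequences of Lif and Il6 are shown because these were the most abundant of the ligands with at least 2-fold lower levels in Rgs5 > Pdgfra cells. Each is the 250 bases before the RefSeq transcription start (GRCm38.p6), 5′ to 3′ on the plus strand, Il6 at chr5:30012864-30013113 and Lif at chr11:4257318-4257567. Capitals mark a match to TGANTCA, a pattern open at its middle base that includes the letters bound by AP-1 factors such as Fos and Jun.
Il6: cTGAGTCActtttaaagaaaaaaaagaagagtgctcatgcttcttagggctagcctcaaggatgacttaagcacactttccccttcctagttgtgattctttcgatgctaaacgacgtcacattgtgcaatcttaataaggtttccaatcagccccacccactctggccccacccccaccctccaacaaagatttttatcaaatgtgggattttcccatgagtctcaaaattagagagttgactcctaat
Lif: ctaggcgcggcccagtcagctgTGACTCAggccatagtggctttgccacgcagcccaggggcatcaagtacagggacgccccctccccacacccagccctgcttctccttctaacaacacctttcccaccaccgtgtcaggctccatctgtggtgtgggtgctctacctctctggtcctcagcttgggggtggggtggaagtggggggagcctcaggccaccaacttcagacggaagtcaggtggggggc
Counted from the start, the match lay at -249 to -243 in Il6 and at -228 to -222 in Lif. TGANTCA reads the same on both strands, apart from its middle base, and does not overlap the STAT motif used below. Of 32851 promoter windows from 250 bases before to 50 after a start, 7.81% held it. Of 11 such windows for 9 of the 10 genes, 4 held it, the others being 1 window of Il11 (TGAGTCA) and that of Osmr (TGATTCA). Clcf1 had no entry. A match describes the letters and not binding.

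Counted over the 10 genes, 3 were at least 2-fold lower in Rgs5 > Pdgfra cells (Lif, Il6 and Il11) and 0 were at least 2-fold higher. Lif and Il6 were above 1 CPM in both sets. Il11, at 0.767 CPM in Rgs5 > Pdgfra cells, was not, and it reached 1 CPM through the rest alone. Of all 16968 genes with at least 1 CPM, 7.77% were at least 2-fold lower and 7.08% at least 2-fold higher. The median log2 fold over all of these genes was 0.022. Along 5 ranges of 92 cells each, from the lowest to the highest ratio of Rgs5 to Pdgfra, Lif had 292.6, 519, 150.7, 80.5 and 27.2 CPM. Il6 had 37.4, 49.7, 39.1, 20.9 and 4.28 CPM. Neither was highest at the Pdgfra end: both peaked in the second range and were lowest in the fifth.

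**Figure D2:**
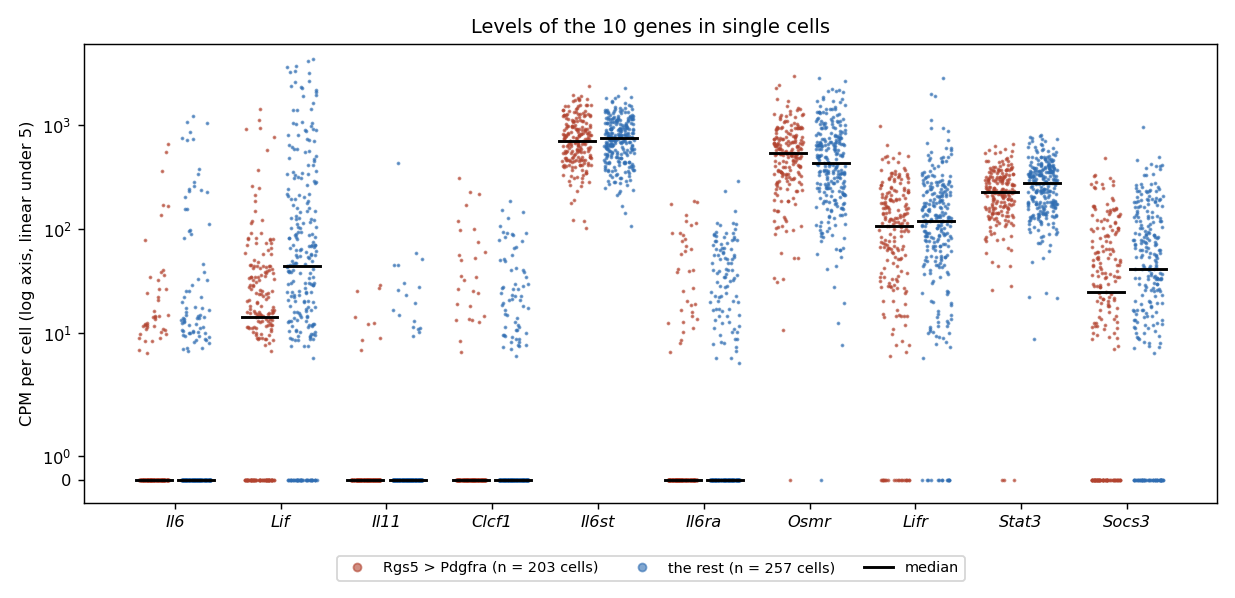
CPM of each of the 10 genes in single cells (log axis, linear under 5), with Rgs5 > Pdgfra cells left in each pair (44.1% of cells) and the rest right. Points are cells and bars are medians; the Lif median is 14.2 CPM in Rgs5 > Pdgfra cells and 44.3 in the rest, while the Il6st medians, 702.6 and 743.5, lie close together.

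Il6st, the shared signalling chain, differed by less than counting error between the sets. It ran from 102.8 to 2388 CPM in single Rgs5 > Pdgfra cells (median 702.6) and from 106.5 to 2251 CPM in the rest (median 743.5). Summed Il6st was 773.8 CPM (760.6 to 787.1) in Rgs5 > Pdgfra cells and 777.6 CPM (766.8 to 788.4) in the rest. The log2 fold was -0.01, with a counting interval of -0.04 to 0.02, and -0.05 to 0.03 over every alternative run. Osmr, the oncostatin M receptor chain, had a median of 531.1 CPM in Rgs5 > Pdgfra cells (0 to 2953) and 431.5 CPM in the rest (0 to 2827). Its sums were 561.1 CPM in Rgs5 > Pdgfra cells and 573.5 CPM in the rest, a log2 fold of -0.03 (-0.07 to 0.01). The 2 sets overlapped almost fully for both chains.

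Lifr, the chain that binds LIF, was lower in Rgs5 > Pdgfra cells. Its lowest, median and highest cells were 0, 106.96 and 968.3 CPM in Rgs5 > Pdgfra cells and 0, 119.7 and 2828 CPM in the rest, so the gap lay more in the highest cells than in the middle. Summed Lifr was 134.2 CPM (128.7 to 139.8) in Rgs5 > Pdgfra cells and 185.8 CPM (180.6 to 191.2) in the rest, a log2 fold of -0.47. In the low-Sftpc runs it was -0.03. Il6ra, the IL6 binding chain, was sparse, with 687 counts, 16.1 CPM and 28.7% of cells (24.6 to 33.1%). Its lowest and median cells were at 0 in both sets, and its highest at 183.97 CPM in Rgs5 > Pdgfra cells and 285.8 CPM in the rest. A count was found in 17.7% of Rgs5 > Pdgfra cells (12.7 to 23.7%) and 37.4% of the rest (31.4 to 43.6%). After thinning it was 15.8% of Rgs5 > Pdgfra cells and 31.3% of the rest. Summed Il6ra was 13.6 CPM (11.9 to 15.5) in Rgs5 > Pdgfra cells and 17.8 CPM (16.2 to 19.5) in the rest, a log2 fold of -0.38, or -0.77 without Ptprc cells and 0.08 in the low-Sftpc runs. Across the 5 ranges its share of cells was 51.1, 25, 35.9, 19.6 and 11.96%. Il6ra counts were found in 40.4% of cells with Ptprc and 27.2% of cells without.

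Stat3, the factor that the receptors activate, ranged from 0 to 648.6 CPM in Rgs5 > Pdgfra cells (median 228.3) and from 8.73 to 804.9 CPM in the rest (median 274.6). The sets overlapped over most of this range. Summed Stat3 was 239.8 CPM (232.5 to 247.3) in Rgs5 > Pdgfra cells and 288.02 CPM (281.5 to 294.7) in the rest, a log2 fold of -0.26. The gene shares 72 exon bases with Stat5a on the opposite strand, and whether counting used strand is not given in the sources used here. Socs3, the feedback inhibitor, had a median of 24.9 CPM in Rgs5 > Pdgfra cells (0 to 480.8) and 40.9 CPM in the rest (0 to 950.0). Its sums were 58.3 CPM (54.7 to 62.02) in Rgs5 > Pdgfra cells and 82.9 CPM (79.4 to 86.5) in the rest, a log2 fold of -0.51. A count was found in 68.97% of Rgs5 > Pdgfra cells and 80.9% of the rest. After thinning it was 66.7% of Rgs5 > Pdgfra cells and 76.95% of the rest. Stat3 and Socs3 were thus modestly lower in Rgs5 > Pdgfra cells, by less than the 2-fold used for a call.

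**Figure D3:**
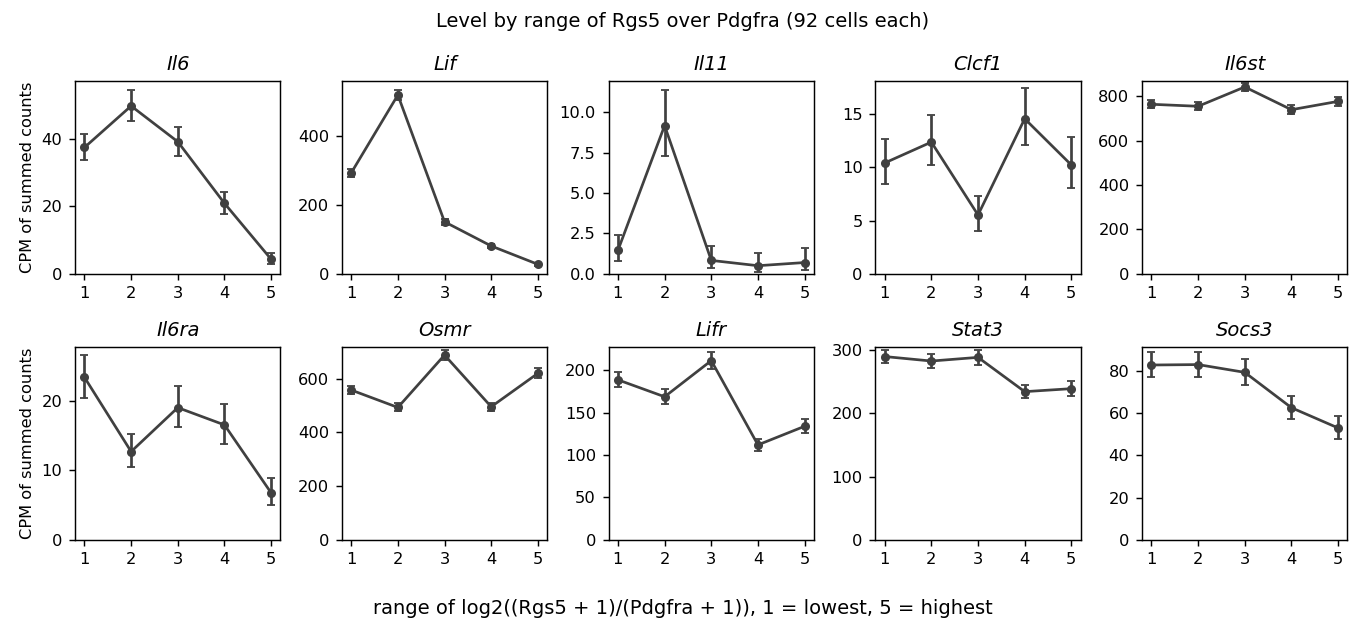
CPM of summed counts of each gene in 5 ranges of 92 cells, ordered by log2((Rgs5 + 1)/(Pdgfra + 1)) from lowest to highest; bars are exact Poisson 95% intervals, and each panel has its own axis from 0. Lif and Il6 are lowest in the fifth range (27.2 and 4.28 CPM), Il6st lies between 740.3 and 842.9 CPM throughout, and the Il11 peak of 9.17 CPM in the second range holds its 56-count cell.

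Most cells held a ligand transcript and nearly all held Il6st, Osmr and Lifr, but not Il6ra. At least 1 of the 4 ligands was counted in 83.5% of cells (79.8 to 86.8%), in 76.4% of Rgs5 > Pdgfra cells and 89.1% of the rest. Exactly 1 ligand was counted in 45.65% of cells, 2 in 31.3%, 3 in 28 cells and all 4 in 2 cells. Il6st, Osmr, Lifr and Stat3 were counted together in 92.2% of cells. Lif, Lifr and Il6st, a ligand with both of its chains, were counted together in 69.8% of cells (65.4 to 73.9%). The product of the 3 separate shares is 70.7%. By set this was 59.1% of Rgs5 > Pdgfra cells and 78.2% of the rest. After thinning it was 49.7% of Rgs5 > Pdgfra cells and 67.9% of the rest. Il6, Il6ra and Il6st were counted together in 47 cells (10.2%, 7.60 to 13.4%), where the product of shares is 7.36%. After thinning the share was 7.97% and the product 5.35%. By set, 5.91% of Rgs5 > Pdgfra cells (3.09 to 10.1%) and 13.6% of the rest (9.67 to 18.4%) held all 3. The highest cells of the 2 main ligands overlapped in part: of 18 cells with at least 20 counts of Il6, 9 also had at least 20 of Lif (50%, 26.02 to 73.98%), against 67 of the other cells (15.2%, 11.9 to 18.9%). Of these 18 cells 15 were in the rest, where 25.7% of all cells had at least 20 counts of Lif. The 18 had a median total of 113852 counts, against 88701 over all cells. Across the 460 cells Il6 with Lif had a Spearman correlation of 0.172 (0.149 within Rgs5 > Pdgfra cells and 0.124 within the rest).

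In CPM, no receptor chain rose steadily with the level of Lif, and Lifr was lowest in the cells with the most Lif. In cells with 0, 1 to 19 and at least 20 counts of Lif (23.7, 59.8 and 16.5% of cells), Il6st had 756.3, 792.8 and 748.7 CPM. Lifr had 174.3, 170.2 and 142.2 CPM and Osmr 539.4, 593.4 and 528.0 CPM. Il6ra had 10.7, 18.2 and 15.7 CPM, but the share of cells with a count of it rose, at 19.3, 30.2 and 36.8%. Socs3 had 68.6, 70.9 and 84 CPM and Stat3 273.2, 256.2 and 300.3 CPM. Median totals in these cells were 75519, 87201 and 111728 counts, and 60.55, 46.2 and 13.2% of them were Rgs5 > Pdgfra cells. By the level of Il6, in the 74.3, 21.7 and 3.91% of cells with 0, 1 to 19 and at least 20 counts, Socs3 had 64.4, 92.9 and 112.4 CPM, Stat3 256.3, 297.6 and 324.5 CPM, and Osmr 546.8, 589.5 and 791.6 CPM. Lifr had 157.7, 173.7 and 237.3 CPM and Il6st 750.04, 852.2 and 818.5 CPM. Il6ra had 15.3, 18.6 and 17.6 CPM. Socs3, Stat3, Osmr and Lifr were highest in the 18 cells with the most Il6, and Il6st and Il6ra were not. In the same order, 46.8, 40 and 16.7% of cells were Rgs5 > Pdgfra cells, the last being 3 of 18. Median totals were 86691, 89582.5 and 113852 counts.

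Correlations across the 460 cells are descriptions over cells that differ in depth and come from an unstated number of animals. Of 28 pairs among the 8 genes counted in at least 25% of cells, 2 (7.14%) reached a Spearman correlation of 0.3, where 0.13% of all pairs of genes counted that often did. Both were between receptor chains, which were counted in 92.6 to 100% of cells. The 0.13% covers all genes counted in at least 25% of cells, so the 2 shares are not matched for level. Among 9062 named genes outside the 10, 21 reached 0.3 with Osmr, 13 with Il6st and 1 with Lifr. Il6st with Osmr had 0.399 (0.338 within Rgs5 > Pdgfra cells and 0.451 within the rest), and Osmr with Lifr had 0.361 (0.254 within Rgs5 > Pdgfra cells and 0.440 within the rest). In the low-Sftpc runs these were 0.285 and 0.259. Osmr and Lifr lie side by side on chromosome 15 (mm10 positions 6813577 to 6874969 on the minus strand and 7090614 to 7197489 on the plus strand), 215.6 kb apart with 0 coding genes between them. Lif was nearly uncorrelated with both of its chains, at -0.021 with Lifr and 0.028 with Il6st. Il6 had 0.161 with Il6ra and 0.136 with Il6st, and 0.094 with Socs3. Stat3 with Socs3 had 0.207.

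**Figure D4:**
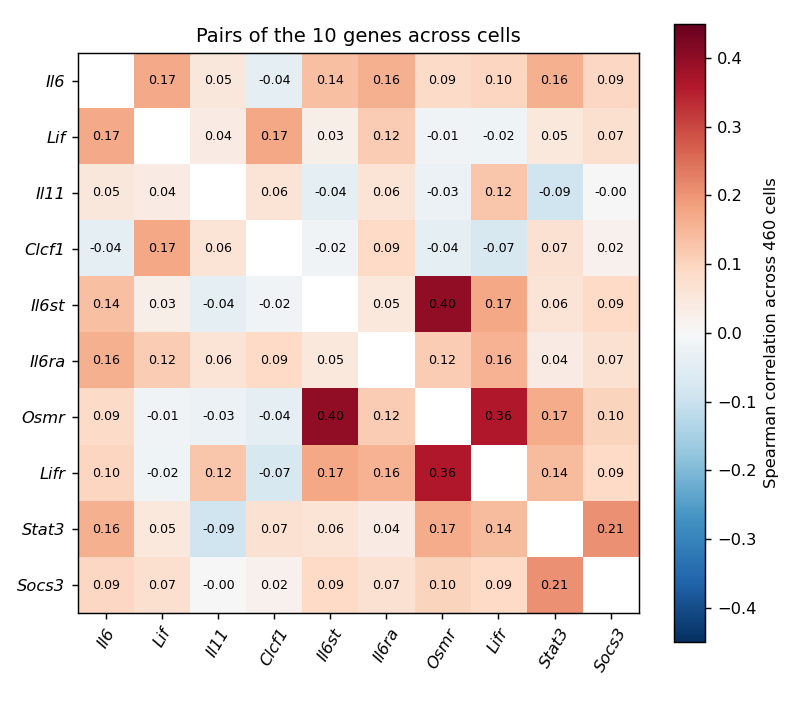
Spearman correlation across 460 cells of each pair of the 10 genes, on the log1p scale of counts per 10000; red is positive and blue negative, and the diagonal is left blank. Il6st with Osmr (0.399) and Osmr with Lifr (0.361) stand above the others, and the median over the 28 pairs of often counted genes is 0.098.

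Among 9062 named genes counted in at least 25% of cells, those most like Socs3 were Zfp36 (0.523), which encodes an RNA decay factor, Junb (0.472), Gadd45b (0.443), Nr4a1 (0.436) and Fosl2 (0.417). Zfp36, Junb and Nr4a1 belong to a list of 18 immediate early genes, the quick responders to a stimulus or to tissue handling. Socs3 correlated at 0.472 with the score of that list (0.410 within Rgs5 > Pdgfra cells and 0.473 within the rest), Lif at 0.227 and Stat3 at 0.207. The part of cell handling in this was not tested. The upstream sequences of Socs3 and Zfp36 are shown because this was the closest pair found for the 8 genes counted in at least 25% of cells. Each is the 250 bases before the RefSeq start (GRCm38.p6), 5′ to 3′ on the minus strand, Socs3 at chr11:117969367-117969616 and Zfp36 at chr7:28379229-28379478. Capitals mark a match to TTCNNNGAA, the letters bound by STAT dimers, which reads the same on both strands.
Socs3: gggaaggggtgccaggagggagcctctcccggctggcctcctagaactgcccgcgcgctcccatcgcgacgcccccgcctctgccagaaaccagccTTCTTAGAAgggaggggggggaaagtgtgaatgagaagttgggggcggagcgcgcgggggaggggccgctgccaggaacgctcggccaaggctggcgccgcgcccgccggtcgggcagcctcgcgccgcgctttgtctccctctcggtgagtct
Zfp36: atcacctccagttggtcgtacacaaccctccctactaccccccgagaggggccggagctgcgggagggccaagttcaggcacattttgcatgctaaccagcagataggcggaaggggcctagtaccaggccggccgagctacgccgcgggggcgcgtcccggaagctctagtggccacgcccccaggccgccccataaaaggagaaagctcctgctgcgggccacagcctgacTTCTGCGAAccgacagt
Counted from the start, the match lay at -154 to -146 in Socs3 and at -17 to -9 in Zfp36. Of the 32851 windows 8.3% held the motif, and of the 11 windows, which cover 9 of the 10 genes, that of Socs3 alone did. Junb had none in its window.

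**Figure D5:**
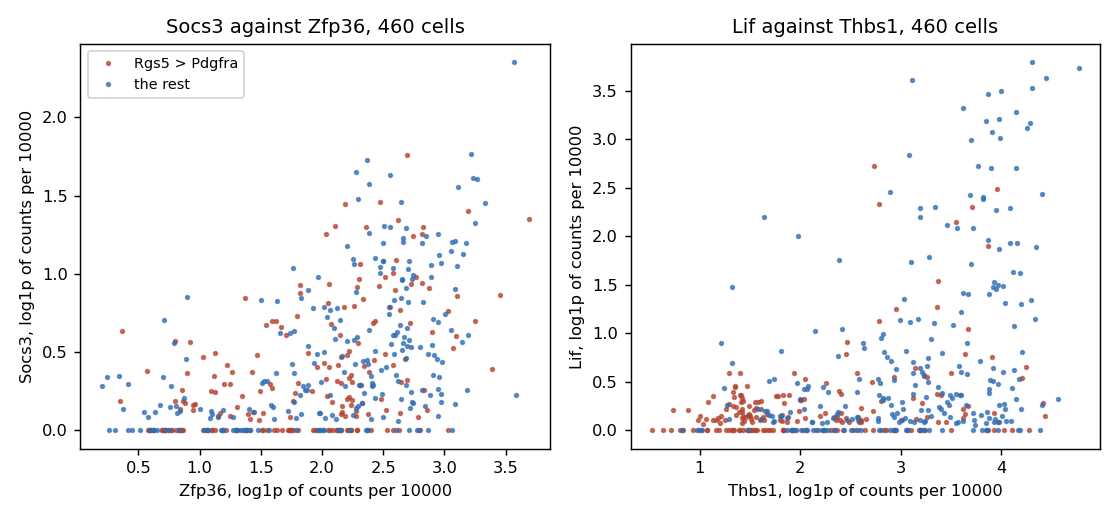
Single-cell levels, as log1p of counts per 10000, of Socs3 against Zfp36 (left) and of Lif against Thbs1 (right), with Rgs5 > Pdgfra cells in red and the rest in blue. The Spearman correlations over 460 cells are 0.523 and 0.408; many cells lie at 0 on both vertical axes, and the highest Lif cells are in the rest.

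The genes most like Lif were Thbs1 (a thrombospondin of the matrix, 0.408), Gas7 (0.384), P4ha3 (a collagen prolyl hydroxylase subunit, 0.384), Igf1 (a growth factor, 0.379) and Dcn (decorin, 0.364). All 5 were themselves lower in Rgs5 > Pdgfra cells, as with Thbs1 at 1265 CPM in Rgs5 > Pdgfra cells and 2971 CPM in the rest, and Lif with Thbs1 had 0.191 within Rgs5 > Pdgfra cells and 0.397 within the rest. Il6st and Osmr shared 3 of their 5 most like genes, Serping1 (a complement inhibitor, 0.454 with Il6st and 0.496 with Osmr), Sparcl1 (0.363 and 0.428) and Fn1 (fibronectin, 0.448 and 0.390). Il6st also had Prelp (0.418) and Lrp1 (0.361), and Osmr had Gpx3 (0.395) and Fads3 (0.368). The 5 most like genes of Osmr had 0.188 to 0.377 with it within Rgs5 > Pdgfra cells and 0.449 to 0.589 within the rest. For Il6ra they were Fth1 (ferritin heavy chain, 0.345), Sirpa (0.342), Cp (ceruloplasmin, 0.324), Dab2 (0.315) and Apoe (0.311). For Stat3 they were Csrnp1 (0.329), Fosl2 (0.318), Nr4a1 (0.312), Nfkbia (0.311) and Nfkbiz (0.303), the last a pair of regulators of NF-kappaB. These 5 had 0.088 to 0.183 with Stat3 within Rgs5 > Pdgfra cells and 0.361 to 0.416 within the rest. Lifr had 1 gene at 0.3 or more, Limch1 (0.310, with 0.167 within Rgs5 > Pdgfra cells and 0.387 within the rest). Il6 had none, its closest being Nfil3 (0.234).

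The other genes of the pathway were read against the same 7.77% lower and 7.08% higher. Of 7 other ligands of the family, Ebi3 had no count and 2 reached 1 CPM, with 0 past 2-fold. Ctf1, cardiotrophin, had 2.84 CPM. Osm, the oncostatin M ligand of Osmr, had 42 counts in 7 cells (0.986 CPM). It stood at 7.68 CPM in the 52 cells with Ptprc and 0.0535 CPM in the others, so that nearly all cells had the receptor chain and few the ligand. Of 5 other receptors 4 were tested. The most abundant were Il11ra1 (8.92 CPM, 14.6% of cells), Cntfr (8.87 CPM, 18.04%) and Il27ra (5.54 CPM, 16.1%). Cntfr was at 4.66 CPM in Rgs5 > Pdgfra cells and 11.7 CPM in the rest. Il12rb1, named for its value although it is scarce, was at 4.89 CPM in Rgs5 > Pdgfra cells and 0.429 CPM in the rest, and had 8.44 CPM in Ptprc cells and 1.34 in the others. Il11 and Il11ra1 were counted together in 7 cells, and Clcf1 and Cntfr in 13.

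None of the 9 kinases and adaptors and none of the 6 inhibitors passed 2-fold in either direction, with median log2 folds of -0.06 and 0.06. Jak1 led the first list at 407.6 CPM, ahead of the adaptor Shc1 (345.8 CPM) and Jak2 (198.1 CPM). Ptpn1, a phosphatase (241.4 CPM), Socs2 (235.3 CPM) and Pias3 (47.9 CPM) led the second, while Socs1 had 1.67 CPM. The proteases Adam10 (183.5 CPM) and Adam17 (79.5 CPM), which release soluble Il6ra, had log2 folds of 0.20 and 0.24. Of 9 genes of the signals that induce IL6 and their receptors, 1 was at least 2-fold lower, Il1b, counted in 20 cells, and 0 were higher. Nfkbia (567.0 CPM), Tgfb1 (308.3 CPM) and Tnfrsf1a (276.6 CPM) were the most abundant of these, and the IL1 receptor Il1r1 had 139.1 CPM in Rgs5 > Pdgfra cells and 219.3 CPM in the rest.

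Of 19 genes known as STAT3 targets, 5 (26.3%) were at least 2-fold lower in Rgs5 > Pdgfra cells and 0 higher, with a median log2 fold of -0.69. The 5, named after their values were seen, were Serpina3n, an acute phase protease inhibitor (150.8 CPM in Rgs5 > Pdgfra cells against 624.3 CPM in the rest), Saa3, serum amyloid (3.60 against 13.3 CPM), Lbp, lipopolysaccharide binding protein (62.04 against 183.6 CPM), the kinase Pim1 (46.5 against 101.3 CPM) and Bcl3 (18.05 against 37.97 CPM). Of the 3 most abundant of the list, which include Serpina3n, 2 did not pass 2-fold: Fos had 2188 CPM in Rgs5 > Pdgfra cells and 2058 CPM in the rest, and Junb 688.99 CPM in Rgs5 > Pdgfra cells and 863.7 CPM in the rest. The score of the list correlated with Lif at 0.336 (0.153 within Rgs5 > Pdgfra cells and 0.289 within the rest). In the same order it had 0.340 (0.214 and 0.408) with Socs3, 0.310 (0.341 and 0.177) with Il6ra and 0.305 (0.142 and 0.360) with Stat3. Fos and Junb are also on the list of immediate early genes, whose score correlated with Socs3 at 0.472. Many of the 19 target genes also answer to other signals. Among 9 fibroblast markers, Dcn and Lum were also at least 2-fold lower in Rgs5 > Pdgfra cells, as was Pdgfra, which the split itself uses. The part of each in the difference was not tested.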

How the data were processed

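Single-cell libraries of 460 cells in 1 group were used. The deposited table gives molecular barcode counts, whole numbers per gene and cell. STAR and HTSeq, and the build mm10, are named in the submitters' processing notes. The step from reads to barcode counts, and whether strand was used, are not given in the sources used here. All 460 columns were used and 0 left out. The gene with the most counts kept each of 119 repeated symbols.

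CPM was computed from counts summed over cells, with exact Poisson 95% intervals, and shares with exact Clopper-Pearson 95% intervals. Folds were called at 2-fold among genes of at least 1 CPM. For comparison across depths, cells were thinned without replacement to 56586 counts, the 10th percentile, which kept 414. Correlations are Spearman's, on log1p of counts per 10000, and scores are means of standardised members. Exon lengths and positions came from GENCODE vM21 and promoters from RefSeq. Columns were called low in Sftpc where over 50% of the 20 nearest had under 30 CPM of it. No doublets were called or removed, and an alternative left out the deepest 5% of cells. Alternative size factors came from scran 1.30.0 in R 4.3.3. All else was computed with numpy 2.4.6, pandas 2.3.3, scipy 1.17.1 and matplotlib 3.10.9 under Python 3.11.15. Only the fold and correlation steps were tested on simulated data.

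The genes, the split of cells and all lists were chosen with earlier results of these data known. Named genes are the 10 members, up to 3 of the most abundant genes of each pathway list, and the 5 genes most like each member counted in at least 25% of cells, without ribosomal, mitochondrial and unnamed genes. A few items are not reported here. Genes outside this rule are named as such or for a count of 5 or fewer.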

Additional observations from a re-analysis of the deposited data

How the results depend on the processing

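The count of members at least 2-fold lower in Rgs5 > Pdgfra cells was 3 in all alternatives but the low-Sftpc runs alone, where it was 2, though not always of the same genes: in those runs without each member's highest cell the 3 were Lif (-1.59), Il11 (-1.44) and Clcf1 (-1.72), with Il6 at -0.66. In the low-Sftpc runs alone the 2 were Lif (-1.94) and Il11 (-2.15). Il11 was among the 3 of the main run, although it had 0.767 CPM in Rgs5 > Pdgfra cells and reached 1 CPM through the rest alone. A constant count is therefore no measure of how steady each gene was. The count at least 2-fold higher was 0 in all. The log2 fold of Lif ran from -2.79 to -1.59, that of Il11 from -3.47 to -1.17, that of Clcf1 from -1.72 to 0.47, that of Il6ra from -0.95 to 0.08, that of Lifr from -0.58 to 0.18 and that of Socs3 from -0.65 to -0.01. The fold of Il6 ran from -2.12 to 0.72, the last in the low-Sftpc runs, where 1 cell set its sign. The share with any ligand, 83.5%, was 79.7% after thinning, 63.04% at 2 or more counts, 66.9% in the low-Sftpc runs and 89.8% in the other columns. That with Lif, Lifr and Il6st, 69.8%, was 60.4%, 45.7%, 48.8% and 77.8% under the same settings, and that with Il6, Il6ra and Il6st, 10.2%, was 4.35% at 2 or more counts and 7.09% in the low-Sftpc runs. Of member pairs, 2 reached a correlation of 0.3, 1 in Rgs5 > Pdgfra cells alone and 0 in the low-Sftpc runs. Leaving out the 12 cells with at least 20 counts of Hand2 and Hoxa10 together, and leaving out the highest cell of each member within the low-Sftpc runs, were chosen after seeing the data. Without the 12 cells the fold of Lifr was -0.35. With 1 sample, no value here has a replicate error.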
